A study of Rattus norvegicus with 18 samples.

Results

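The genes described here are those through which T cells read the signals that hold them in a tissue or let them leave it, namely *S1pr1*, *S1pr4*, *Klf2*, *Ccr7*, *Cd69* and *Gpr183*. These 6 genes were looked up by name among the 32882 genes that each of 3 rat expression tables lists, and all 6 were found. The libraries were 3′ mRNA-seq of TMBP cells, CD4+ T cells of the Lewis rat that recognize myelin basic protein (MBP) and cause experimental autoimmune encephalomyelitis, a model of multiple sclerosis, after transfer. Knockout (KO) cells and control cells were injected together into Lewis rats and sorted again on day 3. The control cells had received a non-targeting (NT) guide and were sorted as BFP+, while the KO cells were sorted as GFP+, so that the genotype and the fluorescent protein cannot be told apart. There were 6 groups of 3 libraries, namely NT and *Ets1*-KO cells from the spinal cord parenchyma, NT and *Ets1*-KO cells from the spleen, and a further set of NT and *Grk2*-KO cells from the spleen. All the cells came from an MBP-reactive line that was expanded in growth factor medium and restimulated with MBP and irradiated thymocytes before transfer. Editing was done in bulk cultures with Cas9 protein and guide, so a KO library can hold unedited cells, and the age and sex of the rat behind each library were not given in the labels.

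Sphingosine-1-phosphate (S1P) is a lipid that is plentiful in blood and lymph and scarce inside tissues, and T cells follow it outwards with the receptor S1PR1. The kinase GRK2 phosphorylates S1PR1 that has met its ligand and so helps to take it off the surface, CD69 binds S1PR1 and pulls it inside after activation, and the transcription factor KLF2 switches the *S1pr1* gene on. S1PR4 is a further S1P receptor of lymphocytes, CCR7 steers cells towards the chemokines of lymph nodes and afferent lymph, and GPR183 towards oxysterols. ETS1 is a transcription factor of the ETS family that lymphocytes express strongly.

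The KO groups were defined by the guides that the cells had received. The guides used for the rat cells are shown because every comparison of KO with NT rests on them, in lower case and 5′ to 3′.
NT guide: gctgcatggggcgcgaatca
*Ets1* guide: tgctgctcggagttaacagt
*Grk2* guide: gatttgtcagaacctccgag

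RefSeq promoters, which run from 250 bases before to 50 bases after the start of a gene, were matched for 3 of the 6 genes, *S1pr1*, *S1pr4* and *Gpr183*. Those of both S1P receptors are printed because their transcripts were the ones that stood lower in the parenchyma than in the spleen, and they are written 5′ to 3′ on the strand of the gene, with capitals for CACCC on either strand, a letter run of the kind that KLF factors bind. The *S1pr1* promoter lies at chr2:206314021-206314320 on the minus strand and that of *S1pr4* at chr7:8858278-8858577 on the plus strand, both in the GRCr8 build of the rat genome.
*S1pr1* promoter: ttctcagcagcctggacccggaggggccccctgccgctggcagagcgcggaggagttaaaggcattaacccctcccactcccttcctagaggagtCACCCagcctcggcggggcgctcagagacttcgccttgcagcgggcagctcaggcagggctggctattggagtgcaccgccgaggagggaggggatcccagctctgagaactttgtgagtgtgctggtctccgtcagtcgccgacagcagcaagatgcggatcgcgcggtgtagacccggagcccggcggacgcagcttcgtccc
*S1pr4* promoter: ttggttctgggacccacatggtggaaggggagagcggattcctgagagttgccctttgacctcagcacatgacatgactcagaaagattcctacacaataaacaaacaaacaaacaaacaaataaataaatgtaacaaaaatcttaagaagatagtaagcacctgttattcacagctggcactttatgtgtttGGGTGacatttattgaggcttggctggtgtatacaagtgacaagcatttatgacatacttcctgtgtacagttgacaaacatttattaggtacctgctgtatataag

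Each of the 3 promoters held CACCC at 1 place, and 54.9% of the 33469 rat promoters of the same length held it on either strand. The letters CCGGAA, a longer form of the GGAA core that ETS factors bind, were in none of the 3 on either strand and in 14.95% of all promoters. No match overlapped another. Other forms of the ETS site were not searched, so this count does not show that a promoter lacks such sites. These matches only describe letters in a window and were not set against any binding data.

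The libraries held between 898092 and 2248258 reads on genes, and the *Ets1*-KO spleen libraries (1909862 to 2248258) were deeper than their controls (898092 to 1213485). *Grk2* reads checked the label of the *Grk2*-KO cells, with 53.3 to 87.3 normalized counts in the 3 KO libraries against 142 to 166 in the controls (log2 fold change -1.22, SE 0.13, limma adjusted p = 1.8e-12). *Ets1* reads did not check the *Ets1* label, since they were as frequent in KO as in NT cells, at 2342 to 2682 against 2302 to 2573 in the parenchyma and 1763 to 2370 against 1965 to 2227 in the spleen. Reads at the 3′ end do not show an edit elsewhere in the transcript. According to the paper's methods, single KO lines for follow-up experiments had their editing efficiency measured beforehand. The supplement also holds an ETS1 protein blot of NT and KO cells. The 9 T cell markers summed to between 2677 and 3503 CPM (reads relative to 1000000 reads on genes) in every library, and all 9 were detected in each group. The CD8 chain *Cd8b* had no read in any library. *Cd8a* was at 4.01 to 7.203 CPM in the *Ets1*-KO cells of the parenchyma and at 0 to 2.67 in their controls, without overlap, at no more than 2.23 in the *Ets1* spleen set and at 0 in the *Grk2* set, and its part in the results was not tested. Of the B cell markers, 2 to 5 of the 10 had a read in a group, with sums of at most 9.89 CPM.

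*S1pr1* (ENSRNOG00000013683, chr2:218654553-218658761 in Rnor_6.0, minus strand) stood lower in the parenchyma than in either spleen group. Levels across tables are given as CPM. In the NT cells of the parenchyma *S1pr1* stood at 44.8, 53.7 and 57.8 CPM (mean 52.1 ± 6.63, SD, n = 3). In the NT cells of the spleen it stood at 204, 267 and 229 CPM in the *Ets1* set (234 ± 31.7, n = 3) and at 254, 259 and 241 in the *Grk2* set (251 ± 9.27, n = 3). All 3 parenchyma libraries lay below all 6 spleen libraries, and the spleen means were 4.49-fold and 4.83-fold higher than the parenchyma mean. The spleen groups overlapped each other, and the mean of the *Ets1* set was 0.929 times that of the *Grk2* set.

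*S1pr4* (ENSRNOG00000005370, chr7:11077410-11079687, plus strand) was also lower in the parenchyma, but its level differed between the spleen sets as well. The NT cells of the parenchyma held 97.6, 101 and 106 CPM (101.7 ± 4.48, n = 3). The NT cells of the spleen held 445, 402 and 379 in the *Ets1* set (409 ± 33.7, n = 3) and 243, 255 and 280 in the *Grk2* set (259 ± 19.1, n = 3). The 3 groups did not overlap in any pair, and the spleen means were 4.02-fold and 2.55-fold above the parenchyma mean. Of the 4 genes with enough reads, these 2 receptors were the ones whose parenchyma controls lay below all spleen controls, which 14.5% of the 6207 genes with a mean of at least 10 normalized counts in every table did. Both were more than 2-fold lower against both spleen groups, as 3.93% of those genes were.

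*Gpr183* (ENSRNOG00000025094, chr15:108364700-108376221, minus strand) did not differ alike between the parenchyma and both spleen sets. Its NT levels were 241, 189 and 212 CPM in the parenchyma (214 ± 25.6, n = 3), 70.0, 90.7 and 109 in the spleen of the *Ets1* set (90.0 ± 19.5, n = 3) and 248, 273 and 209 in the spleen of the *Grk2* set (243 ± 32.1, n = 3). The parenchyma mean was 2.38 times that of the *Ets1* spleen controls, without overlap, and 0.880 times that of the *Grk2* spleen controls, with overlap. The spleen sets differed from each other by 2.705-fold.

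*Cd69* (ENSRNOG00000056783, chr4:163041140-163049084, minus strand), an early activation antigen and the partner that retains S1PR1 inside the cell, stood apart in the *Grk2* spleen controls. It stood at 40.1, 28.5 and 41.7 CPM in the NT cells of the parenchyma (36.8 ± 7.25, n = 3) and at 38.7, 41.6 and 47.9 in those of the *Ets1* spleen (42.7 ± 4.68, n = 3), and these groups overlapped. In the *Grk2* spleen controls it stood at 70.4, 92.4 and 62.4 (75.1 ± 15.6, n = 3), above every library of both other groups.

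**Figure D1:**
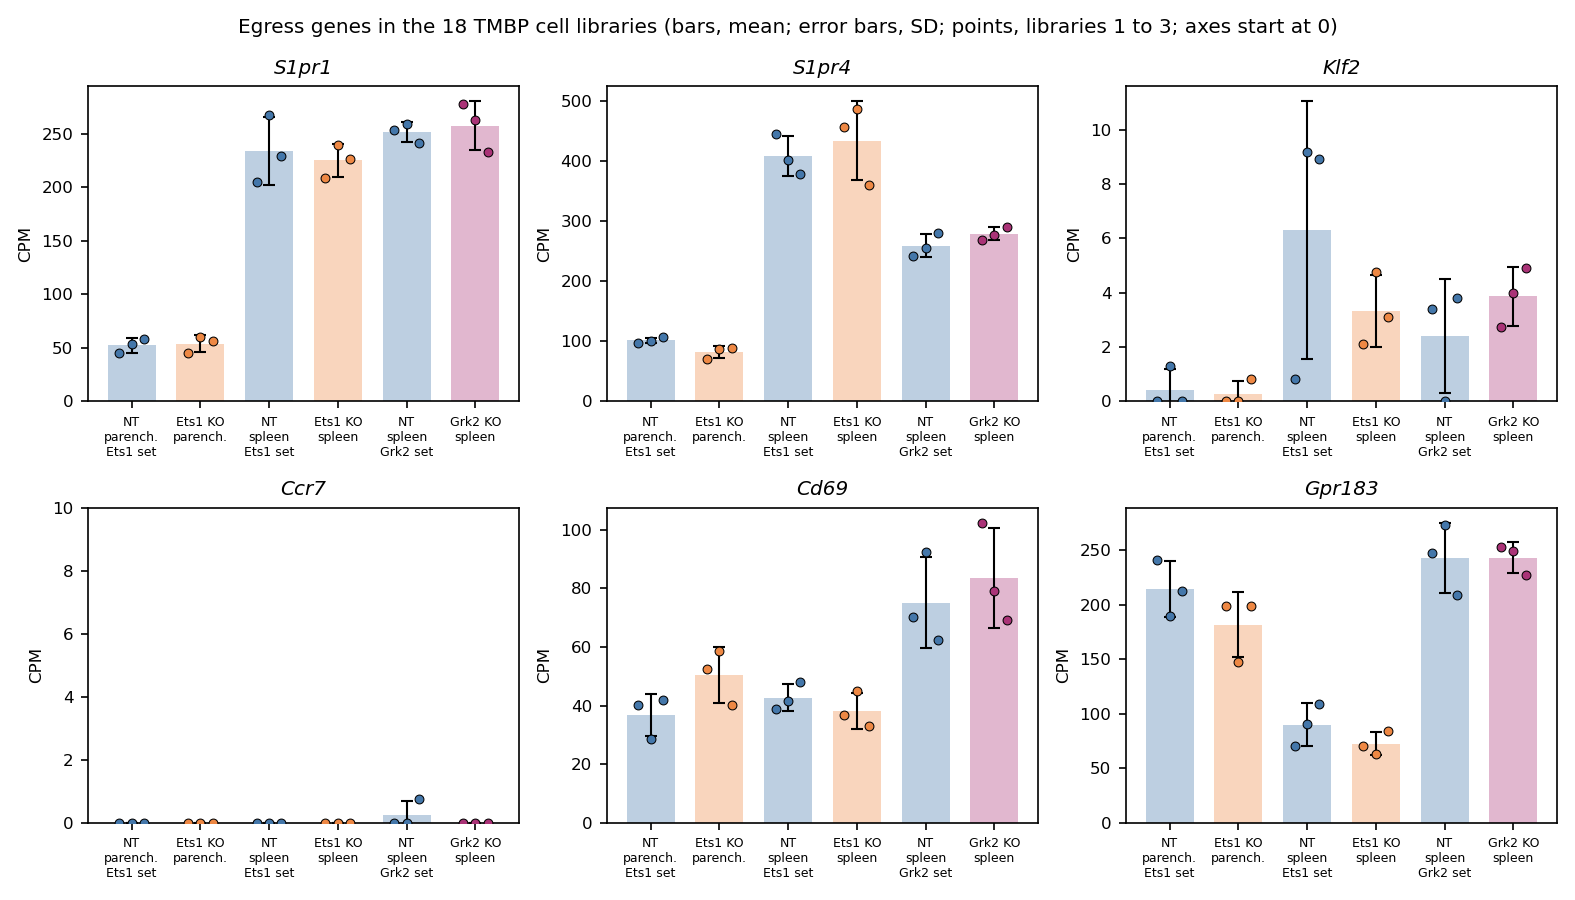
CPM (vertical axis, from 0) for the 6 egress genes in the 6 groups of TMBP cells (horizontal axis). Bars are means, error bars the SD of 3 libraries, and points the libraries. *S1pr1* stands at 44.8 to 57.8 in the 3 parenchyma controls and at 204 to 267 in the 6 spleen controls, while *Klf2* and *Ccr7* stay near 0.

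These levels compare tables that were normalized separately, so they are descriptions and were not tested. Tissue, the isolation (a Percoll gradient for the parenchyma, CD4 enrichment for the spleen) and the table cannot be told apart, and 60.1% of the 6207 genes had non-overlapping control levels between the spleen sets, 23.4% with a difference of more than 2-fold. The median gene was 0.11 lower on the log2 scale in the parenchyma controls than in either spleen group in CPM, and within 0.022 of it after TMM scaling or in the normalized counts. Myeloid markers summed to 18.8 to 39.0 CPM in the parenchyma controls and to 0.761 to 5.83 in the spleen controls, and 10 of the 11 listed in the tables had a read in the parenchyma (all but *Cd163*). The part of such cells in the levels was not tested. The endothelial markers, whose cells also express *S1pr1*, summed to at most 0.856 in the controls, and *Cdh5* and *Cldn5* had no read in any library. The 8 neural and glial markers summed to 1.34 to 11.1 in the parenchyma controls, with *Aqp4* at 0, and to at most 4.24 in the spleen controls. Fewer cells with a transcript and less of it per cell cannot be told apart in bulk libraries.

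The *Ets1*-KO cells showed the same order of tissues for *S1pr1*, *S1pr4* and *Gpr183*. Between the KO groups of the *Ets1* set, the spleen mean was 4.17 times the parenchyma mean for *S1pr1* and 5.28 times for *S1pr4*. The parenchyma mean of *Gpr183* was 2.51 times that of the spleen. The KO cells were injected together with the controls and share their tissue, isolation and table, so they are no separate check of this order. *Cd69* went the other way than in the controls, with a parenchyma mean 1.32 times that of the spleen against 0.860 times, and it overlapped in both cases.

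*Klf2* (ENSRNOG00000014205, chr16:19223086-19225037, minus strand) was barely counted. It had 0, 2 and 0 reads in the parenchyma controls, 1, 11 and 8 in the *Ets1* spleen controls and 4, 0 and 5 in the *Grk2* spleen controls. Over the 3 libraries of a group, the share of reads was 13.5-fold higher in the *Ets1* spleen controls than in the parenchyma controls (exact 95% interval 3.28 to 119) and 5.51-fold higher in the *Grk2* spleen controls (1.14 to 52.4), intervals that cover counting error only. Single libraries of both spleen groups, with 1 and 0 reads, were as low as the parenchyma. In KO cells *Klf2* had 0, 0 and 1 reads in the parenchyma, 4, 10 and 7 in the *Ets1* spleen and 4, 5 and 7 in the *Grk2* spleen, which overlapped the controls in each table.

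*Ccr7* (ENSRNOG00000010665, chr10:87057135-87067456, minus strand) had 1 read in all 18 libraries together, in an NT library of the *Grk2* spleen set, among 25925531 reads. Over the 3 NT libraries of the parenchyma, 0 reads allow a level of up to 0.670 CPM, and of up to 0.906 over those of the *Ets1* spleen. The interleukin-7 receptor gene *Il7r*, which resting CD4+ T cells usually express, had 0 reads in the 18 libraries too. Reads were counted over annotated genes, and whether transcripts of *Ccr7* or *Il7r* end outside the annotation was not tested. *Klf2* and *Ccr7* missed the minimum mean of 10 normalized counts in every table and entered no test, so the tests below cover 4 of the 6 genes.

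Whether loss of ETS1 or GRK2 changes the transcripts of the egress receptors was asked within each table, where KO and NT libraries share a scale. None of the 4 genes passed an adjusted p of 0.05 in any of the 3 comparisons with limma, and none did with edgeR or DESeq2 on recovered reads. DESeq2 gave no adjusted p for *Cd69* in either spleen set or for *Gpr183* in the *Ets1* spleen. Its unadjusted p there was 0.62 (*Cd69*, *Ets1* spleen), 0.59 (*Cd69*, *Grk2* spleen) and 0.21 (*Gpr183*). At an unadjusted limma p under 0.05 there were 3 of 4 in the parenchyma and 0 in either spleen set, where 16.9% of all genes tested in the parenchyma, 14.1% in the *Ets1* spleen and 10.4% in the *Grk2* spleen were under it. In the parenchyma 0 of the 4 were under it with DESeq2 (0.153 for *S1pr4*, 0.118 for *Cd69*, 0.129 for *Gpr183*). The same held with limma without its variance trend (0.060, 0.104 and 0.123). At the adjusted threshold 5.23% of 7002 genes passed in the parenchyma after *Ets1* KO, in the spleen 2.22% of 6979 after *Ets1* KO and 1.56% of 6985 after *Grk2* KO. The tests were limma fits of log2(normalized count + 1) with the replicate number as a block, and the fold changes below are on that scale.

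*S1pr1* had almost the same level in KO and NT cells of each table. In the parenchyma it stood at 62.6, 78.1 and 81.6 normalized counts in the NT libraries 1 to 3 and at 63.7, 85.9 and 79.3 in the *Ets1*-KO libraries (log2 fold change 0.04, SE 0.16, adjusted p = 0.946). In the spleen the values were 271, 345 and 323 in NT and 273, 313 and 318 in *Ets1*-KO cells (log2 fold change -0.05, SE 0.12, adjusted p = 0.898). The groups overlapped in both tissues. The 95% intervals of the fold change ran from 0.823 to 1.29 in the parenchyma and from 0.817 to 1.14 in the spleen. In the *Grk2* set *S1pr1* stood at 324, 336 and 321 in NT and at 357, 341 and 303 in *Grk2*-KO cells, which overlapped (log2 fold change 0.03, SE 0.09, adjusted p = 0.957), with an interval of the fold from 0.904 to 1.15. These counts concern the transcript and not the receptor on the surface, on which GRK2 acts.

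*S1pr4* was the gene whose groups did not overlap in the parenchyma. The NT libraries held 136, 147 and 150 normalized counts and the *Ets1*-KO libraries 99.1, 125 and 125, lower in all 3 pairs. The log2 fold change of -0.32 (SE 0.13) had an unadjusted limma p of 0.016 and an adjusted p of 0.154, and the exact permutation test gave 0.1, the smallest two-sided p that 3 against 3 libraries allow. Groups without overlap were seen for 18.4% of all genes tested there. In the spleen *S1pr4* stood at 591, 520 and 533 in NT and 597, 636 and 505 in *Ets1*-KO cells (log2 fold change 0.08, SE 0.11, adjusted p = 0.816), with overlap. The effect in the parenchyma minus that in the spleen was -0.39 (SE 0.16, adjusted p = 0.215), against 2.1% of 6520 genes that passed that test. In the *Grk2* set the values were 310, 330 and 372 in NT and 346, 360 and 378 in KO cells, higher in all 3 pairs but overlapping (log2 fold change 0.10, SE 0.09, adjusted p = 0.741).

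*Cd69* had the largest fitted difference of the 4 genes, in the parenchyma. The NT libraries held 56.0, 41.4 and 59.0 normalized counts and the *Ets1*-KO libraries 73.8, 83.9 and 56.7, so that libraries 1 and 2 of the KO group lay above every control and library 3 did not. The log2 fold change was 0.45 (SE 0.18, adjusted p = 0.142), and the exact permutation test gave 0.2. Without the pair numbered 2 it was 0.17 with an adjusted p of 0.823, and without the pair numbered 3 it was 0.70 with an adjusted p of 0.036, the only one of 13 alternative settings that called one of these genes, and over all settings for *Cd69* in this comparison the adjusted p ranged from 0.036 to 0.980. In the spleen *Cd69* stood at 51.4, 53.8 and 67.4 in NT and 47.9, 58.9 and 46.2 in *Ets1*-KO cells (log2 fold change -0.17, SE 0.20, adjusted p = 0.771). The difference of the effects between tissues was 0.61 (SE 0.29, adjusted p = 0.331). In the *Grk2* set it stood at 90.0, 120 and 83.0 in NT and 132, 103 and 90.0 in KO cells, which overlapped (log2 fold change 0.15, SE 0.13, adjusted p = 0.768).

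*Gpr183* was lower in all 3 pairs after *Ets1* KO in both tissues without passing the test in either. The pair numbered 1 in the spleen differed by only -0.019 on the log2 scale. The share of all genes that were lower in all 3 pairs was not counted. In the parenchyma the values were 336, 276 and 300 in NT and 279, 210 and 281 in KO cells (log2 fold change -0.25, SE 0.10, adjusted p = 0.148). In the spleen they were 93.0, 117 and 154 in NT and 91.8, 82.5 and 118 in KO cells (log2 fold change -0.30, SE 0.16, adjusted p = 0.399). KO and NT libraries overlapped in both tissues, and the exact permutation test gave 0.3 in each. The difference between the tissues was 0.050 (SE 0.18, adjusted p = 0.945). In the *Grk2* set the values were 317, 354 and 278 in NT and 326, 324 and 296 in KO cells, and the fold was 1.00 with an interval from 0.887 to 1.13. The *Ets1* effect minus the *Grk2* effect in the spleen was -0.30 (SE 0.17, adjusted p = 0.464). None of the 4 genes passed that test, which 1.94% of 6490 genes did.

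**Figure D2:**
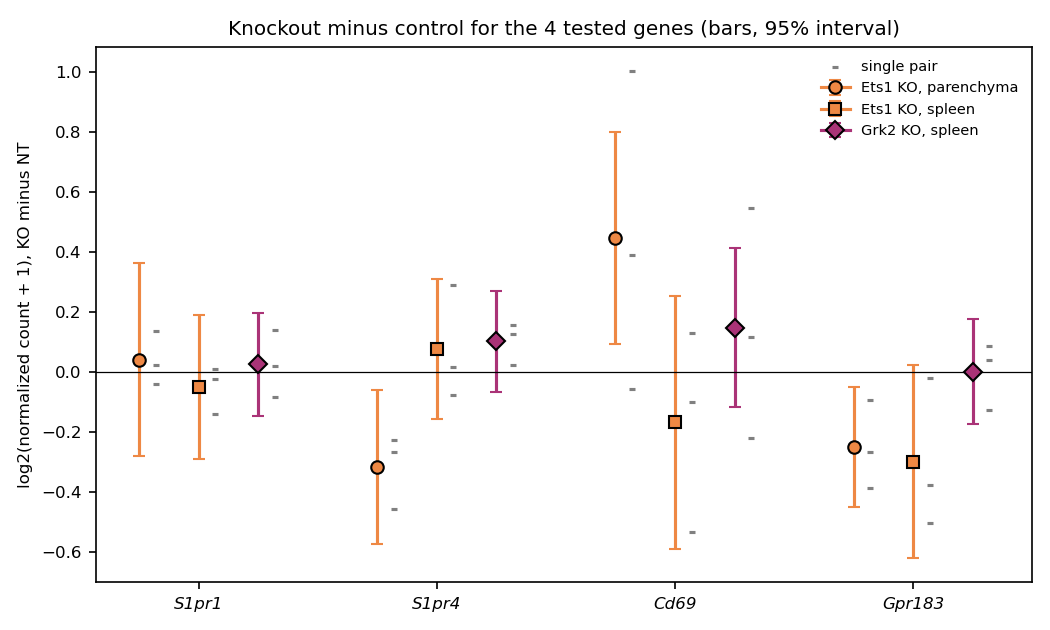
Difference between KO and NT cells in log2(normalized count + 1) (vertical axis) for the 4 tested genes (horizontal axis) in the 3 comparisons. Symbols are limma estimates, bars 95% intervals, and dashes the 3 single pairs. In the parenchyma the intervals of *S1pr4* (-0.57 to -0.059), *Cd69* (0.092 to 0.80) and *Gpr183* (-0.45 to -0.049) leave out 0 before adjustment, while those of *S1pr1* include it in all 3 comparisons.

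The wider S1P system was followed through lists of its genes. Of the 5 S1P receptors, *S1pr3* had no read and *S1pr5* too few for a test in any table. *S1pr2*, a receptor that couples to other G proteins than S1PR1 does, was tested in the *Ets1* tables alone, with a log2 fold change of -0.31 (SE 0.29) in the parenchyma and 0.51 (SE 0.42) in the spleen, neither of which passed. Of the 12 genes of S1P synthesis, breakdown and transport, 5 were tested in each table and none passed. Both exporters of S1P in the list, *Spns2* and *Mfsd2b*, had 3 and 0 reads in all libraries. None of the 6 genes for ligands of CCR7 and GPR183 or the enzymes that make them had enough reads for a test.

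Of the 13 genes of S1PR1 coupling and desensitization, 11 were tested in each table. In the parenchyma *Rac2*, a GTPase of cell movement, fell after *Ets1* KO from 1550 ± 63.1 to 1268 ± 28.5 normalized counts (SD, n = 3, log2 fold change -0.29, SE 0.07, adjusted p = 0.003), and the other 10 did not pass. Of all genes tested there, 2.96% fell. The list's median was -0.24 against -0.029 over all genes tested. The other lists had medians from -0.31 (S1P receptors) to 0.35 (recent activation) in that comparison, and no list median was tested. In the spleen none passed after *Ets1* KO, and after *Grk2* KO the edited gene alone did, where 0.63% of all genes fell.

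Among the 14 genes of the KLF2 and FOXO1 recirculation programme, to which *S1pr1*, *Klf2* and *Ccr7* belong, 9 were tested in the parenchyma, where 4 fell after *Ets1* KO and none rose, against 2.96% of all tested genes that fell there. *Lef1* and *Tcf7*, transcription factors of naive and memory T cells, had log2 fold changes of -1.19 (SE 0.32, adjusted p = 0.008) and -0.86 (SE 0.24, adjusted p = 0.009). *Klf3*, a KLF factor that acts as a repressor, fell from 265 ± 22.1 to 197 ± 17.9 normalized counts (log2 fold change -0.43, SE 0.11, adjusted p = 0.004), and *Satb1*, a chromatin organizer, from 894 ± 57.6 to 699 ± 91.8 (log2 fold change -0.36, SE 0.08, adjusted p = 4.0e-04). Without the replicate block *Tcf7* did not pass (adjusted p = 0.076), and the other 3 did. *S1pr1* and the gut-homing integrin chain *Itgb7* were not among them. In the spleen none of 10 tested genes passed after *Ets1* KO, and after *Grk2* KO *Lef1* alone fell (log2 fold change -0.89, SE 0.24, adjusted p = 0.025, and 0.134 without the block).

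Of the 11 tissue residency genes, to which *Cd69* belongs, 8 were tested in each table. In the parenchyma *Rgs2*, a regulator of G protein signalling, rose after *Ets1* KO (log2 fold change 0.35, SE 0.10, adjusted p = 0.013, and 0.070 without the block), and *Itga1*, an integrin chain for collagen, fell (-0.64, SE 0.20, adjusted p = 0.037, and 0.126 without the block), though in only 2 of its 3 pairs. Of all genes tested in the parenchyma, 2.27% rose and 2.96% fell. In the spleen none of the residency genes passed after either KO. Of the 10 genes of recent activation, *Nr4a2* (0.63, SE 0.12, adjusted p = 1.7e-05) and *Egr1* (0.40, SE 0.08, adjusted p = 8.8e-05) rose among 9 tested in the parenchyma, where 2.27% of all genes rose. In the spleen *Fos* (0.86, SE 0.12, adjusted p = 1.7e-04), *Egr1* (0.74, SE 0.18, adjusted p = 0.031) and *Junb* (0.61, SE 0.14, adjusted p = 0.017) rose among 5 tested, where 1.02% of all genes rose, and without the block *Egr1* and *Junb* did not pass (adjusted p = 0.124 and 0.072). After *Grk2* KO none of the 8 tested passed.

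**Figure D3:**
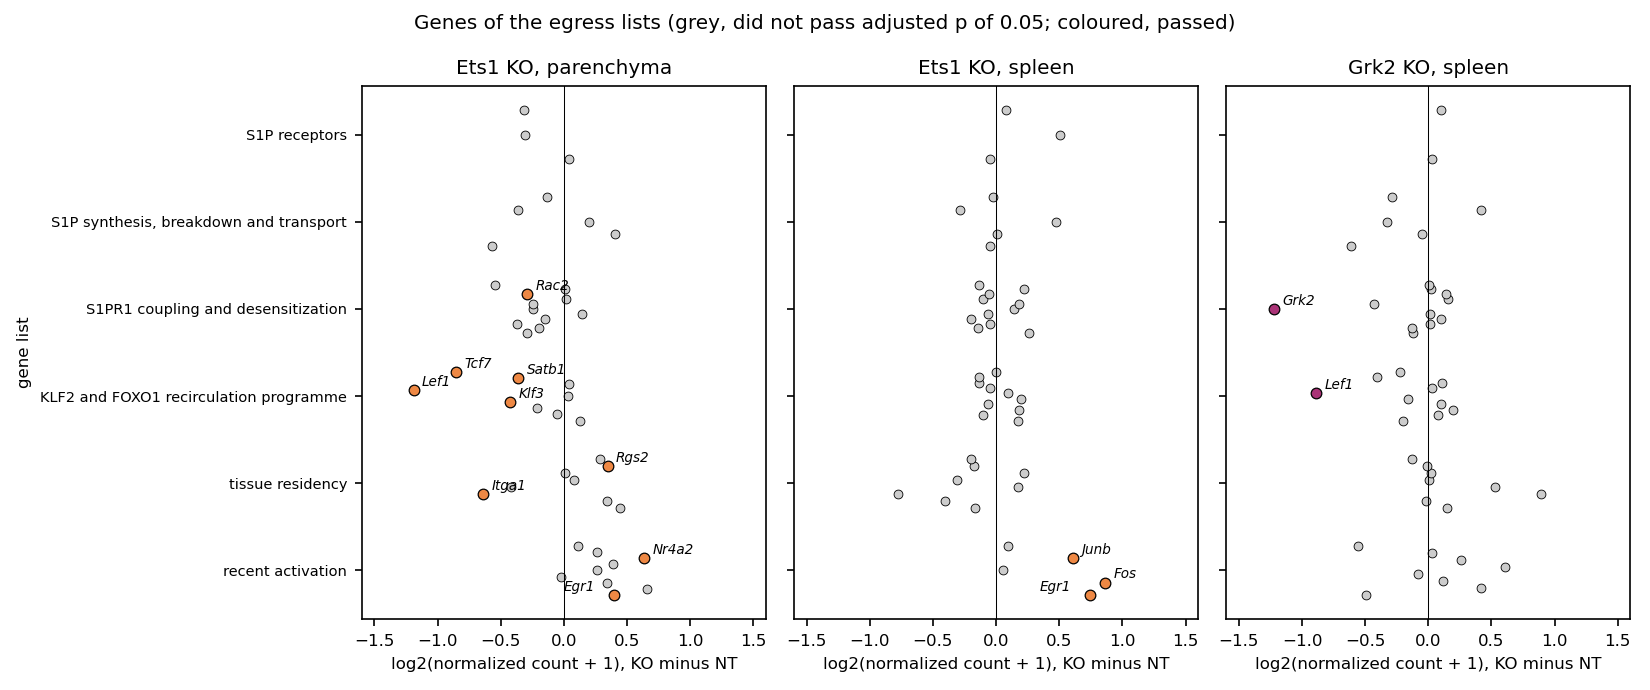
Difference between KO and NT cells in log2(normalized count + 1) (horizontal axis) for each tested gene of 6 egress-related lists (vertical axis) in the 3 comparisons. Each point is a gene, coloured and named where its adjusted p was under 0.05. The S1P receptors hold no coloured point, the recirculation programme holds 4 in the parenchyma, all below 0, and *Grk2* at -1.22 is the gene edited in its table.

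In the controls, several genes of the recirculation programme stood lower in the parenchyma, as *S1pr1* did. Of its 9 genes with a mean of at least 10 in every table, 6 had all 3 parenchyma controls below all 6 spleen controls, *S1pr1* included, and *Satb1* had them above, where the shares over all genes were 14.5% and 9.54%. The 5 beside *S1pr1*, named here after their values were seen, were *Klf3*, *Klf6*, *Itgb7*, *Tcf7* and *Lef1*, with spleen means 2.91, 2.85, 3.55, 2.68 and 1.602 times the parenchyma mean in the *Ets1* set and 2.11, 4.56, 1.63, 1.32 and 1.71 times in the *Grk2* set. *S1pr2* went the other way, at 17.8 ± 4.83 CPM in the parenchyma against 6.91 ± 3.13 and 6.26 ± 0.51 in the spleen controls (SD, n = 3 each). It rested on 80, 24 and 23 reads per group, missed the minimum of 10 in the *Grk2* set and lies outside the shares above.

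**Figure D4:**
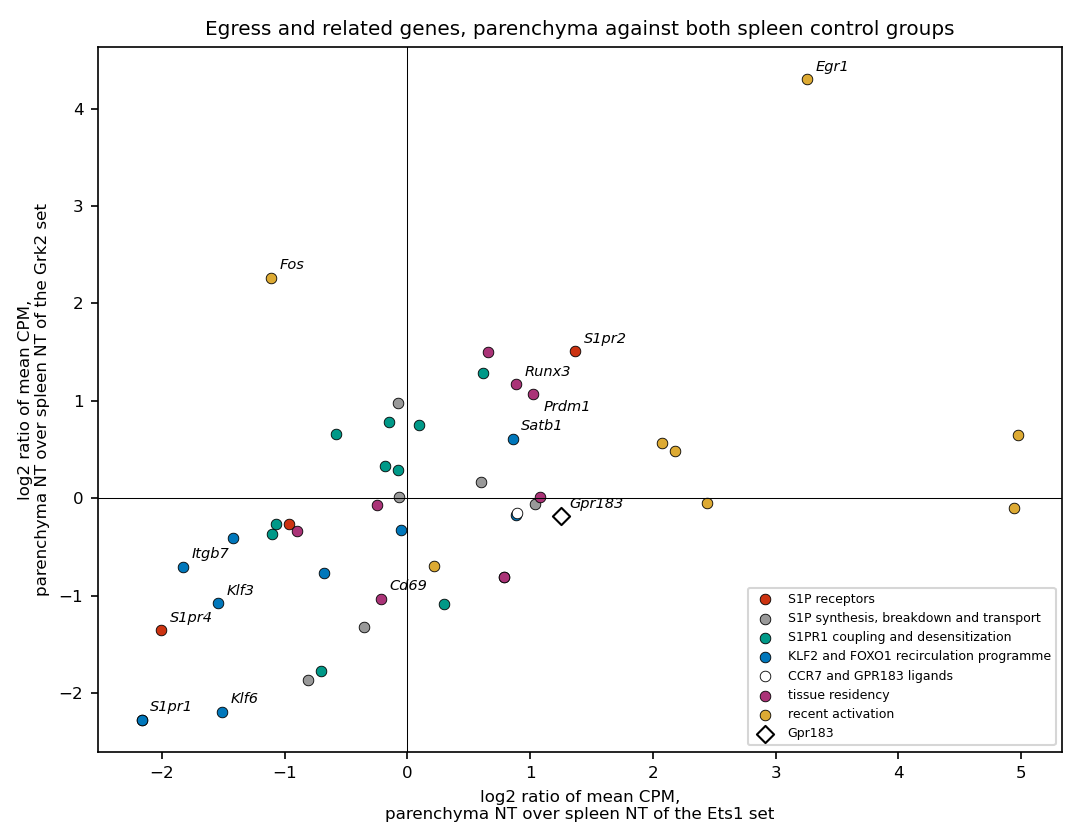
Log2 ratio of mean CPM between parenchyma NT cells and spleen NT cells of the *Ets1* set (horizontal axis) and of the *Grk2* set (vertical axis). Points are genes of the lists with more than 3 reads in each group, coloured by list. *S1pr1* lies at -2.17 and -2.27 and *S1pr4* at -2.01 and -1.35, whereas *Gpr183* (1.25 and -0.18) and *Cd69* (-0.22 and -1.03) depend on the spleen set.

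The genes whose pattern over the 18 libraries was most like that of each gene were ranked among 6203 named genes by Pearson's r of log2(CPM + 1). They were *Glud1* (r = 0.983) and *Smc4* (0.980) for *S1pr1*, *Klf3* and *Sytl1* (both 0.986) for *S1pr4*, *Cd28* (0.967) and *Usp36* (0.957) for *Gpr183*, and *Lysmd2* (0.904) and *Ddx5* (0.893) for *Cd69*. The libraries fall into 3 tables that share tissue, set and scaling, so these values describe likeness between the tables and carry no test.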

How the data were processed

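3′ mRNA-seq of sorted rat TMBP cells was analysed in 18 libraries, 3 per group, with groups taken from the sample labels. According to the methods, the authors aligned untrimmed single-end reads to Rnor_6.0 with STAR 2.7.2b, counted them per gene with HTSeq-count 1.0.0 and computed size factors with DESeq2 (poscounts). The deposited signal values are these counts divided by the size factor of the library, within each of 3 tables. Columns of the authors' own comparisons (fold changes and p-values) and 8 columns of values of human samples were not used.

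All positive values were whole multiples of 1 step per library (tolerance 0.01), and reads were recovered from them (100% whole), also for 2 parenchyma libraries whose step lies close to 1. CPM values relate these reads to all reads on genes. Counting intervals and the limit for 0 reads (3 reads) cover counting error only, and exact intervals are at 95%.

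With limma 3.58.1 in R 4.3.3, a linear model was fitted to log2(normalized count + 1) for each gene whose mean in a table reached 10 (trend, replicate number as a block, two-sided, Benjamini-Hochberg over all tested genes). Differences of effects were tested on the log2 ratios of the pairs. The pairing was taken from the co-transfer and the authors' correction per animal, and the labels do not name the animals. Same-numbered libraries deviated together with r of 0.126, 0.159 and -0.003 in the parenchyma, 0.089, 0.077 and 0.175 in the *Ets1* spleen and 0.145, 0.006 and 0.122 in the *Grk2* spleen. Nothing in the labels says that replicates came from separate cultures, so the tests speak of these libraries only. limma drew the variance of each gene towards a trend over all genes. The weight of that trend was 22 degrees of freedom in the *Ets1* spleen and 141 in the *Grk2* spleen, against 2 of the gene's own. In the parenchyma it was infinite, so SEs, intervals and p-values there rest on the trend and not on the gene's own spread. edgeR 4.0.16 and DESeq2 1.42.0 on the recovered reads were alternatives. The scripts were tested on simulated data.

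The 6 genes and the lists were chosen with earlier results of these data known. Named were the 6 genes, the edited genes, up to 4 called genes per list and comparison that moved alike in all pairs (*Itga1*, which did not, was added after its values were seen, as were *S1pr2*, *Itgb7*, the genes named for having few reads and the examples of tissue levels) and the 2 most alike genes per tested gene. *Znf683*, of the residency list, was not in the tables. Values of 1 further gene of the lists are not reported here, though it stays in their counts.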

Additional observations from a re-analysis of the deposited data

How the results depend on the processing

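The 4 tested genes were not called in any of the 5 comparisons under 13 alternative settings for each KO comparison and 10 for each difference of effects, except that with pairs left out 0 to 1 of them was called in the parenchyma (*Cd69*, without the pair numbered 3). Without the replicate block no further gene of the 4 was called, and the counts over all genes fell from 366 to 200 in the parenchyma, from 155 to 71 and from 109 to 19 in the *Ets1* and *Grk2* spleen tables, and from 137 to 47 and from 126 to 43 for the differences between tissues and between knockouts. Without the variance trend these 5 counts were 3, 0, 0, 2 and 0, and with DESeq2 86, 54 and 12 for the KO comparisons. Other counts beyond 1.5 times were 212 and 242 without a filter (parenchyma and *Ets1* spleen), 238 with edgeR (*Ets1* spleen) and 60 with a minimum of 50 (*Grk2* spleen). With each pair left out in turn the counts ran from 163 to 277, 3 to 232, 6 to 50, 26 to 102 and 19 to 48. The called genes of the lists passed under 4 (*Itga1*) to 12 (*Nr4a2*) of the settings.

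Some differences changed sign. For *Gpr183* after *Grk2* KO they were -0.0083 with quantile normalization, -0.019 with upper quartile scaling, -0.018 with edgeR and -0.020 with DESeq2, and for *S1pr4* in the difference between knockouts 0.022 with upper quartile scaling and 0.024 with edgeR. With pairs left out the ranges that crossed 0 were -0.0074 to 0.081 (*S1pr1*, parenchyma), -0.031 to 0.15 (*S1pr4*, *Ets1* spleen), -0.32 to 0.015 (*Cd69*, *Ets1* spleen), -0.031 to 0.080 (*S1pr1*), -0.053 to 0.33 (*Cd69*) and -0.042 to 0.064 (*Gpr183*) in the *Grk2* spleen, -0.0014 to 0.15 (*S1pr1*) and -0.068 to 0.20 (*Gpr183*) between tissues, and -0.12 to 0.033 (*S1pr4*) between knockouts. The tissue levels kept their direction in CPM, TMM-scaled counts and normalized counts, with *S1pr4* against the *Grk2* spleen controls at -1.22 in normalized counts instead of -1.35. The cause of these changes was not tested. At this depth *Klf2* and *Ccr7* were too rare for a comparison of KO with NT cells.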

Other observations

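Beside the egress genes, 5 of the 10 genes of recent activation had a mean of at least 10 normalized counts in every table. Of these, *Egr1* alone had all 3 parenchyma controls above all 6 spleen controls, where the share over all such genes was 9.54%. *Egr2*, *Egr3*, *Nr4a1* and *Tnfaip3* also stood above, but they missed that minimum in some table, and no share was counted for such genes. *Egr1*, an immediate early transcription factor, stood at 436 ± 66.1 CPM in the NT cells of the parenchyma against 45.6 ± 16.9 in the *Ets1* spleen and 22.1 ± 2.23 in the *Grk2* spleen (SD, n = 3 each), without overlap. *Nr4a1*, induced by antigen receptor signals, stood at 55.4 ± 1.69 in the parenchyma, 1.76 ± 2.16 in the *Ets1* spleen and 35.4 ± 12.8 in the *Grk2* spleen. *Irf4*, which follows the strength of such signals, was at 146 ± 27.7 in the parenchyma and 151 ± 29.5 in the *Grk2* spleen but at 26.8 ± 3.01 in the *Ets1* spleen, and *Fos* was at 87.1 ± 14.98, 18.1 ± 4.34 and 188 ± 18.3 in the same order.

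Of the 8 residency genes with a mean of at least 10 in every table, *Itga1*, *Prdm1* and *Runx3* had all 3 parenchyma controls above all 6 spleen controls, against 9.54% of all such genes. None had them below all 6. However, *Cd69*, *Itgae* (24.5 CPM against 45.7 and 31.0) and *Rgs2* (195 against 231 and 203) had lower means in the parenchyma than in the *Ets1* and *Grk2* spleen controls. *Rgs1* lay between the spleen groups (148 against 85.7 and 258), and *Cxcr6* was at 36.9 against 17.4 and 36.6. *Runx3*, a transcription factor of tissue-resident T cells, stood at 208 ± 8.10 CPM in the parenchyma and at 113 ± 11.03 and 92.7 ± 7.14 in the spleen groups, and *Prdm1*, which encodes the repressor BLIMP1, at 291 ± 24.3, 143 ± 9.94 and 138 ± 13.8. These levels compare separately normalized tables, were chosen after they were seen and were not tested.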
